A study of Mus musculus with 20 samples.

Results

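The genes described here encode enzymes and complexes that mark, read or move chromatin. They were chosen by name from the count table: the Kdm, Mll, Setd, Chd, Smarc, Arid, Brd, Tet, Hdac and Kat families with Ep300, Crebbp, Ep400 and Nsd1. Kdm5c, Kdm5d and Kdm6a were left out, of which 2 were in the table. The rule gave 84 of 19269 genes, and 83 of them had enough counts to be tested. Arid3c, an ARID-domain DNA-binding protein gene, was the exception, at 0 to 0.509 CPM (counts per M counts of a library, scaled over all libraries) in the negative pools. The rule itself used no measured value.

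Chromatin modifiers add or remove chemical groups on histones and DNA, and remodellers use ATP to move nucleosomes. Methyltransferases of the Mll family write methyl marks on lysine 4 of histone H3 at promoters and enhancers, and demethylases of the Kdm family remove such marks. Acetyltransferases and histone deacetylases (HDAC) set the balance of acetylation that bromodomain proteins read. TET dioxygenases oxidise methylated cytosine, a modified form of which is abundant in neurons, and BAF complexes exchange subunits as neural progenitors become neurons.

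The libraries came from preoptic area punches of female mice, the hypothalamic region that holds most neurons making gonadotropin-releasing hormone (GnRH). In translating ribosome affinity purification, an antibody to GFP pulls down ribosomes with a GFP-tagged L10a subunit (the immunoprecipitate, IP), and the depleted supernatant keeps the remaining RNA. Each pool held tissue of 3 to 4 mice, young at day 21 or adult at days 70 to 150 in diestrus. The tag was placed in GnRH neurons by GnRH-Cre acting on a floxed L10a-GFP allele. The 5 negative pools lacked the tag: young pools 1 and 2 were wild type, young pool 3 had only the floxed L10a-GFP allele, and adult pools 1 and 2 had only GnRH-Cre. Among negative pools age and genotype cannot be told apart. An adult GFP-positive pool (GnRH-Cre with floxed L10a-GFP) gave 1 IP and 1 supernatant. Supernatants of 4 GFP-positive pools of an earlier series, 2 young and 2 adult, were each present from a first and a second sequencing set, which made 20 libraries. The labels used here give no treatment for these earlier pools.

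Library totals lay between 27.7 and 50.5 M counts. Gnrh1, the marker of the tagged neurons, had 1456 CPM in the IP of the GFP-positive pool and between 7.84 and 33.5 CPM in negative IP libraries. Neuronal genes were abundant in all negative libraries: 12 marker genes summed to 7780 to 11133 CPM in the IP and 6512 to 7485 CPM in the supernatants. The negative IP libraries held no tagged ribosomes by design, so their RNA is what the procedure recovers without the tag.

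The 84 genes took 0.885 ± 0.0376% of all counts in the negative IP and 0.493 ± 0.00656% in the supernatants of the same pools (SD, n = 5 each). Every IP library lay above every supernatant, with 0.828% as the lowest IP share and 0.502% as the highest supernatant share. The GFP-positive pool held 0.782% in its IP and 0.494% in its supernatant. Of the 83 tested members, 47 were higher in the negative IP and 7 were lower at an adjusted p below 0.05 (edgeR quasi-likelihood test, Benjamini-Hochberg adjustment over 16361 genes). Over all tested genes 15.8% were higher and 16.2% lower. The log2 ratio between fractions had a median of 0.67 over the members and -0.03 over all genes tested. In 43 members every negative IP library exceeded every negative supernatant, in 5 every IP library was below, and in 35 the groups overlapped; over all genes these shares were 12.2% above and 11.7% below.

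**Figure D1:**
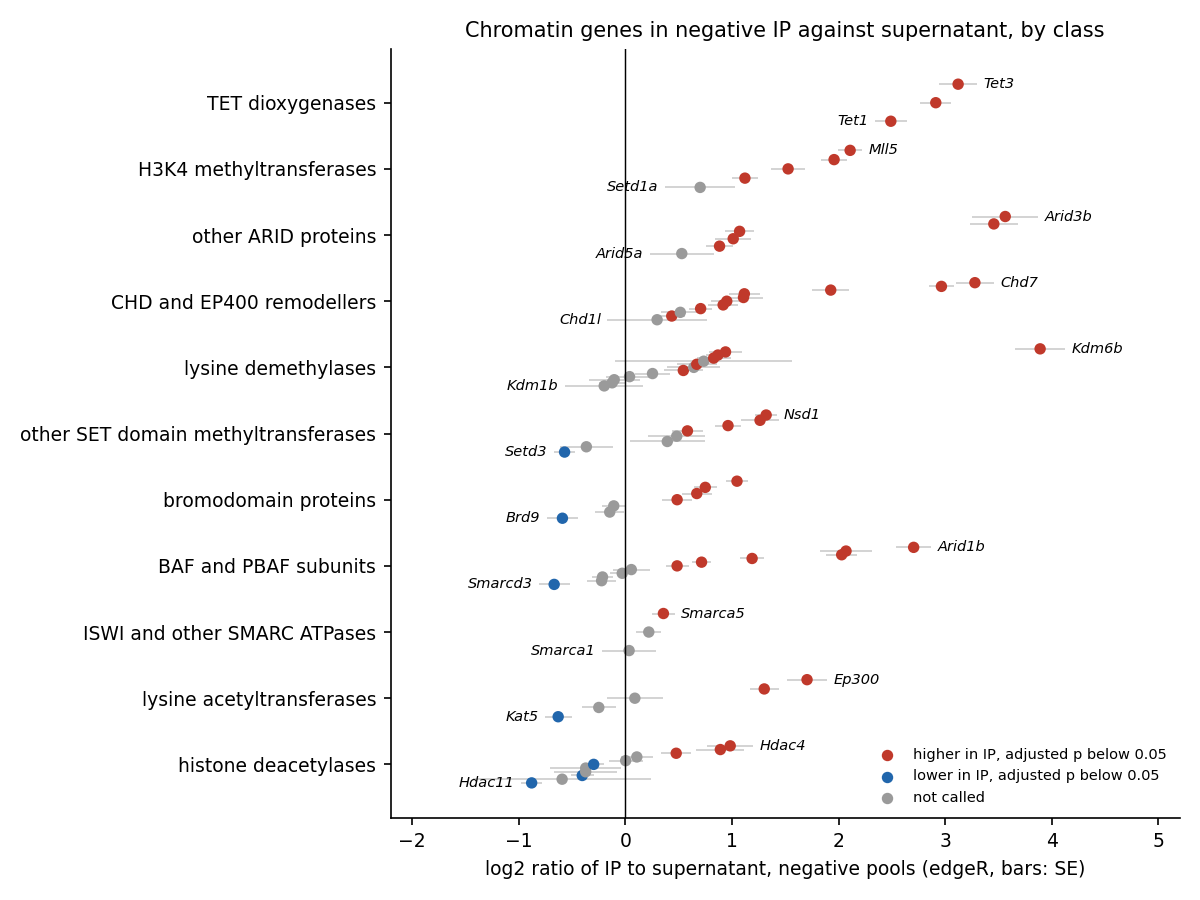
Log2 ratio of IP to supernatant in the negative pools for the 83 tested chromatin genes, grouped by class in order of the class median, with bars for the standard error. Red points were higher and blue points lower at an adjusted p below 0.05; the 3 TET genes lie between 2.49 and 3.12, while histone deacetylases reach from -0.88 to 0.98.

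The largest ratio belonged to Kdm6b, which encodes a demethylase of the repressive mark on lysine 27 of histone H3. Its levels were 134, 131 and 117 CPM in the young negative IP libraries and 92.0 and 71.9 CPM in the adult ones. The supernatants of the same pools held 7.68, 6.76 and 7.88 CPM (young) and 3.70 and 8.62 CPM (adult). No IP library came near the supernatants, and the IP was 14.8-fold higher (log2 3.89, SE 0.23, edgeR adjusted p = 3.11e-06). Kdm6b lies on chromosome 11 from 69398508 to 69413675 (GRCm38, the assembly also called mm10). The next highest of the other 12 demethylases was Kdm5b, at a log2 ratio of 0.94. The class had 6 members higher, 0 lower and 7 not called, with a median of 0.64. Kdm1b, a demethylase of lysine 4 of histone H3, had the lowest ratio (log2 -0.20, SE 0.37, adjusted p = 0.746). Its IP values ran from 6.92 to 24.4 CPM around supernatant values of 11.2 to 19.1 CPM. Kdm1a, the lysine 4 demethylase of the CoREST corepressor, was not called either (log2 -0.12, SE 0.12, adjusted p = 0.510).

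Coding sequences of the demethylases with the highest and lowest ratio are shown because they differ in a feature that varied with the ratio over the members, the share of proline codons. Each line is the run of 90 coding bases, in frame, that holds the most proline codons, which are printed in capitals. Both are read from the annotated transcripts of GENCODE M21 (GRCm38).
Kdm6b, codons 239 to 268: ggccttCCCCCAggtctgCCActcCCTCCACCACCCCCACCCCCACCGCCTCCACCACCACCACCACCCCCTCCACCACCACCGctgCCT
Kdm1b, codons 203 to 232: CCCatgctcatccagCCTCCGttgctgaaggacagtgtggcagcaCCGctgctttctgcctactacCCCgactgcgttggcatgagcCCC
The Kdm6b window held 24 proline codons among 30, the Kdm1b window 6 among 30. Over the whole coding sequence proline codons made up 16.1% of 1641 codons in Kdm6b and 5.69% of 826 in Kdm1b. Across the 83 members the proline codon share and the log2 ratio had a Spearman correlation of 0.48, against 0.12 across 15245 genes. Transcript length had a larger correlation over the same members, 0.73, and the 2 features were not separated. Some members went against the proline trend. Chd9, called as higher, had 5.96% proline codons, while Arid5a and Setd1a, not called, had 12.6% and 11.5%. Kdm6b and Kdm1b were picked by their ratio, so the pair is an illustration and not a test. Coding GC content had correlations of 0.04 over the members and 0.01 over all genes. Genes are not independent replicates, and these values are descriptions.

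The TET genes, which encode the dioxygenases of methylated cytosine, were all higher in the negative IP. Tet3 stood at 253, 282 and 255 CPM in the young IP and 306 and 209 CPM in the adult IP. Its supernatants held 34.5, 29.9 and 31.4 CPM (young) and 20.02 and 33.8 CPM (adult). The ratio was 8.70-fold (log2 3.12, SE 0.18, edgeR adjusted p = 2.03e-06). Tet2 reached 155, 149 and 155 CPM in the young IP and 197 and 128 CPM in the adult IP, against 17.8 to 22.9 CPM in the 5 supernatants (log2 2.91, SE 0.15). Tet1 ran from 82.8 to 141 CPM in the IP and from 12.6 to 27.3 CPM in the supernatants (log2 2.49, SE 0.15). In none of the 3 genes did the fractions overlap. Tet3 was also the most abundant of them per length in the 10 supernatant pools sequenced in the second set, at 2.70 ± 0.51 CPM per kb, with Tet2 at 2.37 ± 0.50 and Tet1 at 1.30 ± 0.47 (SD, n = 10). Tet2 and Tet3 lay within 1 SD of each other.

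The Mll genes and Setd1a were grouped by name as histone H3 lysine 4 methyltransferases, and enzyme activity was not measured. In this class 4 of 5 were higher in the negative IP, with a median log2 ratio of 1.53. Mll5 (current symbol Kmt2e), a divergent member of the family, had 395 to 515 CPM in the IP and 90.6 to 119 CPM in the supernatants (log2 2.11, SE 0.11, edgeR adjusted p = 1.89e-06). Mll3 (Kmt2c), which marks enhancers, followed at log2 1.96 (SE 0.12), and Mll1 (Kmt2a), the founding member, at 1.53 (SE 0.16). Mll2 was taken as Kmt2d, since the table lists Kmt2b separately under its older symbol Wbp7. Its IP levels were 189, 193 and 165 CPM (young) and 176 and 137 CPM (adult). The supernatants held 90.8, 83.0 and 66.1 CPM (young) and 70.5 and 74.2 CPM (adult). The fractions did not overlap, but the ratio was 2.18-fold (log2 1.12, SE 0.12), the lowest called ratio of the class, although its transcript was the longest (19823 nt). Setd1a, a catalytic subunit of a COMPASS complex, was not called (log2 0.70, SE 0.33, adjusted p = 0.140).

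Of the 8 other SET domain genes, 4 were higher, 1 was lower and 3 were not called. Nsd1, a methyltransferase of lysine 36 of histone H3, rose from 65.5 to 96.5 CPM in the supernatants to 177 to 226 CPM in the IP (log2 1.32, SE 0.11, edgeR adjusted p = 1.77e-05). Setd2, which trimethylates the same residue on transcribed genes, rose by log2 1.26 (SE 0.18). Setd3, best known as a methyltransferase of actin, was lower: 141 to 175 CPM in the IP against 218 to 266 CPM in the supernatants (log2 -0.57, SE 0.10, adjusted p = 0.00171). Its fractions did not overlap.

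The CHD remodellers with Ep400, the motor subunit of the TIP60 complex, had 9 of 11 members higher and 0 lower, with a median of 0.95. Chd7, the gene mutated in CHARGE syndrome, stood at 152, 203 and 216 CPM in the young IP and 183 and 118 CPM in the adult IP. Its supernatants held 20.7, 16.6 and 14.7 CPM (young) and 15.8 and 17.9 CPM (adult). The 9.71-fold ratio (log2 3.28, SE 0.18, edgeR adjusted p = 1.90e-06) was the highest of the class, ahead of Chd9 at log2 2.96 (SE 0.11). The subunits of the nucleosome remodelling and deacetylase complex had smaller ratios: log2 0.95 (SE 0.14) for Chd4, 1.11 (SE 0.18) for Chd5 and 0.44 (SE 0.12, adjusted p = 0.0192) for Chd3. Ep400 rose by log2 0.71 (SE 0.11). Chd8 at log2 0.52 (SE 0.19, adjusted p = 0.0565) and Chd1l at 0.30 (SE 0.47, adjusted p = 0.693) were not called. Chd3 lost its call when any of 4 single libraries was left out, at log2 values of 0.37 to 0.45.

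**Figure D2:**
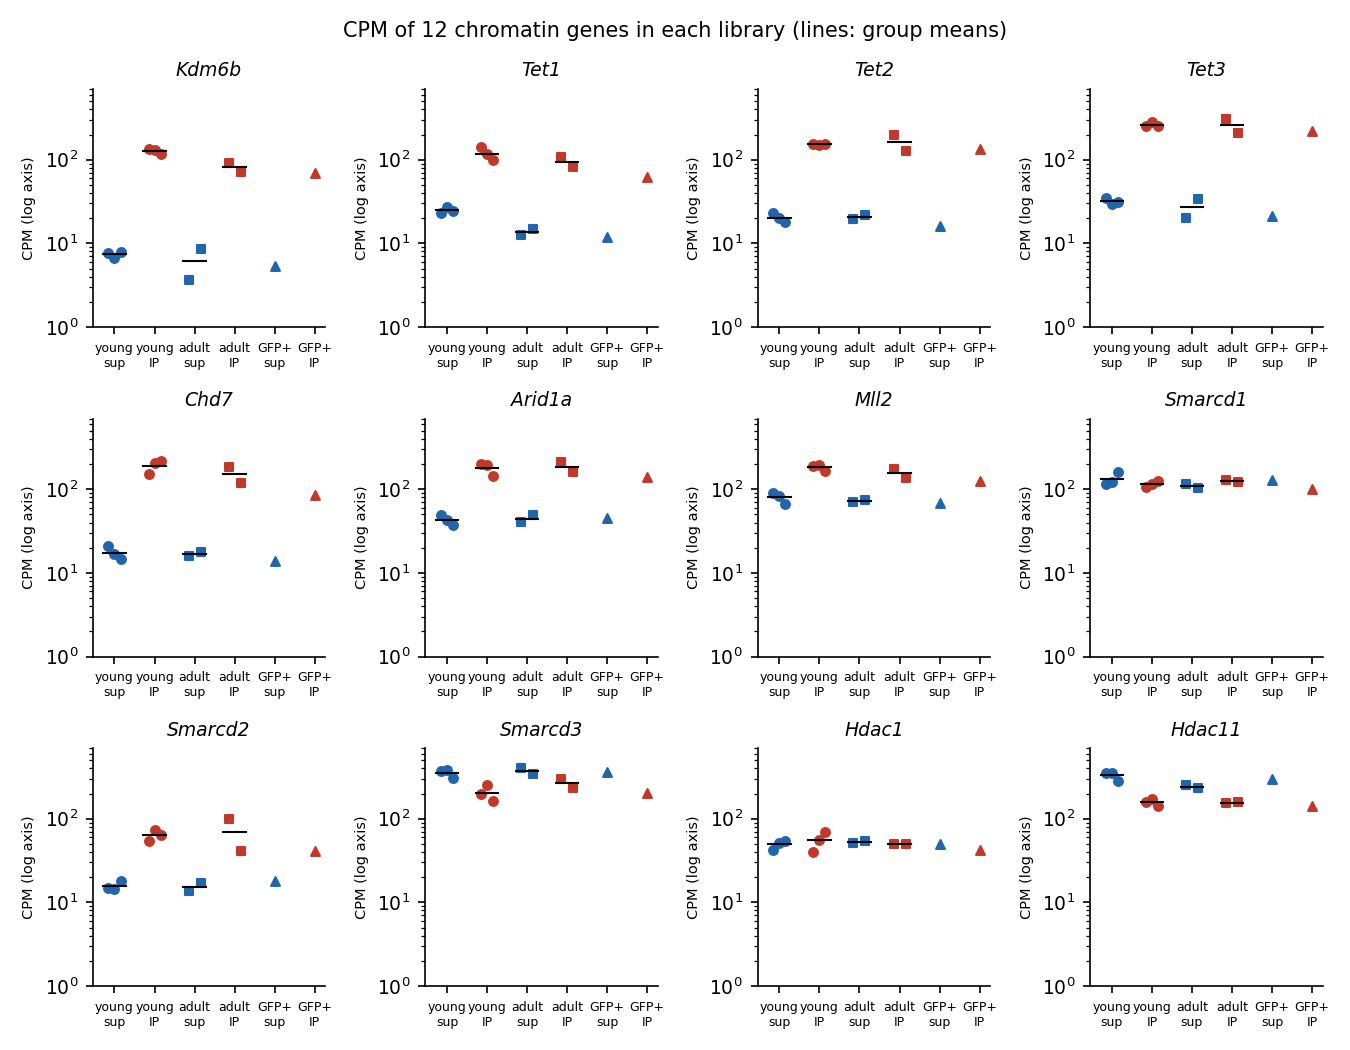
CPM on a log axis of 12 chromatin genes in each new library: supernatants in blue and IP in red, young negative pools as circles, adult negative pools as squares, the GFP-positive pool as triangles, with lines at group means. Kdm6b, the TET genes, Chd7 and Arid1a are higher in each IP than in any supernatant, Smarcd1 and Hdac1 overlap, and Smarcd3 and Hdac11 are lower in each IP.

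The BAF and PBAF subunits divided by subunit rather than moving as a complex: 6 of 11 were higher, 1 was lower and 4 were not called (median log2 0.49). The ARID subunits that define the canonical complex were far up. Arid1b rose from 21.8 to 34.8 CPM in the supernatants to 130 to 204 CPM in the IP (log2 2.70, SE 0.16, edgeR adjusted p = 3.11e-06), and Arid1a from 37.8 to 49.1 CPM to 145 to 212 CPM (log2 2.03, SE 0.14). The ATPases were nearer to the supernatant, Smarca4 at log2 1.19 (SE 0.11) and Smarca2 at 0.72 (SE 0.09). Smarcb1, a core subunit, was not called: 127 to 194 CPM in the IP overlapped 145 to 185 CPM in the supernatants (log2 -0.21, SE 0.10, adjusted p = 0.144). Per length Smarcb1 was 103 ± 8.05 CPM per kb in the 10 supernatants, against 17.5 ± 1.69 for Smarca4, 5.34 ± 0.44 for Arid1a and 2.32 ± 0.41 for Arid1b (SD, n = 10).

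The Smarcd paralogs, which encode alternative subunits of the same position in the complex, went apart. Smarcd2 had 54.4, 72.4 and 63.2 CPM in the young IP and 98.6 and 41.0 CPM in the adult IP. Its supernatants held 15.03, 14.3 and 17.9 CPM (young) and 13.7 and 16.9 CPM (adult). The fractions did not overlap and the ratio was 4.20-fold (log2 2.07, SE 0.24, edgeR adjusted p = 1.50e-04). Smarcd1 overlapped, at 105 to 129 CPM in the IP and 103 to 160 CPM in the supernatants (log2 -0.03, SE 0.12, adjusted p = 0.893). Smarcd3, known for its part in heart and muscle development, had 198, 255 and 163 CPM in the young IP and 301 and 232 CPM in the adult IP. Its supernatants held 370, 385 and 309 CPM (young) and 404 and 342 CPM (adult). Each Smarcd3 IP library lay below each supernatant (log2 -0.67, SE 0.14, adjusted p = 0.00529). Per length Smarcd3 was the highest member in the supernatants, at 196 ± 22.0 CPM per kb, with Smarcd1 at 36.3 ± 4.77 and Smarcd2 at 5.53 ± 0.65 (SD, n = 10).

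The first 90 coding bases of these paralogs are shown because Smarcd2 holds more proline codons there, again in capitals, than the other paralogs.
Smarcd1: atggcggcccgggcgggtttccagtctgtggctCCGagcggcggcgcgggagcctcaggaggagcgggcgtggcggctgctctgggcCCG
Smarcd2: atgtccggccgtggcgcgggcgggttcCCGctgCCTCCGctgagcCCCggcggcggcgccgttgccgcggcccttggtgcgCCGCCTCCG
Smarcd3: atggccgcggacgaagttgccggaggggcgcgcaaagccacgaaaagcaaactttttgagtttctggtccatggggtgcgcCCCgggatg
Smarcd2 held 7 proline codons in these 30 codons, Smarcd1 held 2 and Smarcd3 held 1. Over the whole coding sequence the shares were closer, at 9.98% in Smarcd2, 7.57% in Smarcd1 and 8.07% in Smarcd3. Smarcd3 thus had a higher share than Smarcd1 but a lower ratio between fractions. The stretch was picked for its contrast, so it is an illustration and not a test. Aligned coding sequences were 70.9% identical between Smarcd1 and Smarcd2, 73.9% between Smarcd1 and Smarcd3 and 72.6% between Smarcd2 and Smarcd3.

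Among the other ARID genes 5 of 6 tested members were higher, with a median of 1.04. Arid3b and Arid3a, AT-rich DNA-binding proteins, were rare in the supernatants, at 1.47 to 4.25 CPM and 3.46 to 4.79 CPM. In the IP Arid3b reached 29.1, 45.6 and 25.4 CPM (young) and 55.8 and 42.5 CPM (adult), and Arid3a 36.3 to 58.6 CPM. Their log2 ratios were 3.56 (SE 0.31) and 3.46 (SE 0.23), the largest after Kdm6b (edgeR adjusted p = 2.74e-05 and 5.23e-06). Arid5a, an RNA-binding and DNA-binding protein gene, was not called (log2 0.53, SE 0.30, adjusted p = 0.222). Of the ISWI and other SMARC ATPases, Smarca5, the motor of most ISWI complexes, was higher by log2 0.36 (SE 0.11, adjusted p = 0.0264), while Smarca1 (0.04, SE 0.25) and Smarcal1 (0.22, SE 0.12) were not called. The Smarca5 call was lost when any of 6 single libraries was left out, at log2 values of 0.28 to 0.39.

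The acetyltransferases and their readers showed both directions. Ep300 and Crebbp, the paired transcriptional coactivators, rose by log2 1.70 (SE 0.19) and 1.30 (SE 0.14) in the negative IP (edgeR adjusted p = 1.01e-04 and 8.27e-05). Ep300 went from 19.0 to 26.8 CPM in the supernatants to 61.0 to 114 CPM in the IP, and Crebbp from 40.0 to 51.2 CPM to 92.0 to 129 CPM. Kat5, the catalytic subunit of TIP60, fell from 84.1 to 104 CPM to 52.6 to 82.6 CPM (log2 -0.63, SE 0.13, adjusted p = 0.00342). Kat2a and Kat2b were not called. Of the 7 bromodomain genes 4 were higher, among them Brd2, a BET protein that binds acetylated histones (127 to 179 CPM in the supernatants, 189 to 365 CPM in the IP; log2 0.75, SE 0.11, adjusted p = 5.05e-04). Brd9, a subunit of the non-canonical BAF complex, was lower in every negative pool, at 21.9 to 41.4 CPM in the IP against 41.9 to 49.1 CPM in the supernatants (log2 -0.59, SE 0.15, adjusted p = 0.0114).

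Histone deacetylases were the only one of the 11 classes with a median below 0 (log2 -0.30), with 3 of 11 members higher, 3 lower and 5 not called. Hdac11, the single class IV deacetylase, had 160, 174 and 140 CPM in the young IP and 152 and 158 CPM in the adult IP. The supernatants held 348, 356 and 282 CPM (young) and 251 and 234 CPM (adult). The fractions did not overlap (log2 -0.88, SE 0.10, edgeR adjusted p = 1.39e-04). The class I enzymes of corepressor complexes were near the supernatant: Hdac1 at log2 0.00 (SE 0.16, adjusted p = 0.993), Hdac2 at -0.30 (SE 0.10, adjusted p = 0.0360) and Hdac3 at -0.40 (SE 0.11, adjusted p = 0.0149). The Hdac2 call was lost when any of 6 single libraries was left out, at log2 values of -0.24 to -0.36, and the Hdac3 call without either of 2, at -0.33 and -0.37. Of the class II members Hdac4 rose by log2 0.98 (SE 0.21), Hdac7 by 0.89 (SE 0.23) and Hdac6, the tubulin deacetylase, by 0.48 (SE 0.14, adjusted p = 0.0261). Hdac5, Hdac9 and Hdac10 of that class were not called. In the adult pools alone 0 of 11 deacetylases were called as higher and 1 as lower by edgeR. Over all genes 6.39% were called as higher there, so 0 of 11 is near the share of all genes. At an unadjusted p below 0.05 there were 4 of 11 deacetylases, counting both directions. Hdac10 was at 0 counts in the IP of adult negative pool 1, which allows up to 0.0872 CPM, and its ratio had an SE of 0.84.

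Transcript length went with the ratio. The members were long: 54 of 83 exceeded 4565 nt, the upper quartile of length over all tested genes. Of these 54, 42 (77.8%) were higher and 0 lower, while 38.3% of all genes above that length were higher. The median log2 ratio above that length was 0.95 over members and 0.54 over all genes. The 29 shorter members had 5 higher (17.2%) and 7 lower (24.1%), where all genes up to that length had 8.46% higher and 20.4% lower. Spearman's correlation of length with the ratio was 0.73 over the 83 members and 0.47 over 16154 genes with a length. With an offset removing the length trend from each library, and the pool as a block, 22 members were higher and 6 lower, where all genes gave 9.3% higher and 10.4% lower. The median was then 0.15 over members and -0.13 over all genes.

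All 22 were among the 47 of the fit without offset. They included the 3 TET genes, Kdm6b (log2 3.33), Arid3b (3.43), Arid3a (3.02), Chd7 (2.37), Chd9 (1.98), Arid1b (1.74), Arid1a (1.26), Mll5 (1.42), Ep300 (0.83) and Smarca4 (0.61). Smarcd2, with a transcript of 2747 nt, had log2 2.07 with and without the offset. Mll2 went from 1.12 to 0.03 (adjusted p = 0.875), and Crebbp, Nsd1 and Setd2 also lost their call, at log2 0.37, 0.30 and 0.46. Hdac4, Hdac6 and Hdac7 lost their call as well. Ep400, Chd3, Smarca5, Kdm5a and Smarcc1 fell below 0 and were not called. The lower members with the offset were Hdac11, Smarcd3, Kat5, Setd3, Brd9 and Hdac9 (log2 -1.23), a class II deacetylase with a transcript of 7940 nt. With the length offset but no block Smarcd3 was not called (log2 -0.35, edgeR adjusted p = 0.109).

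**Figure D3:**
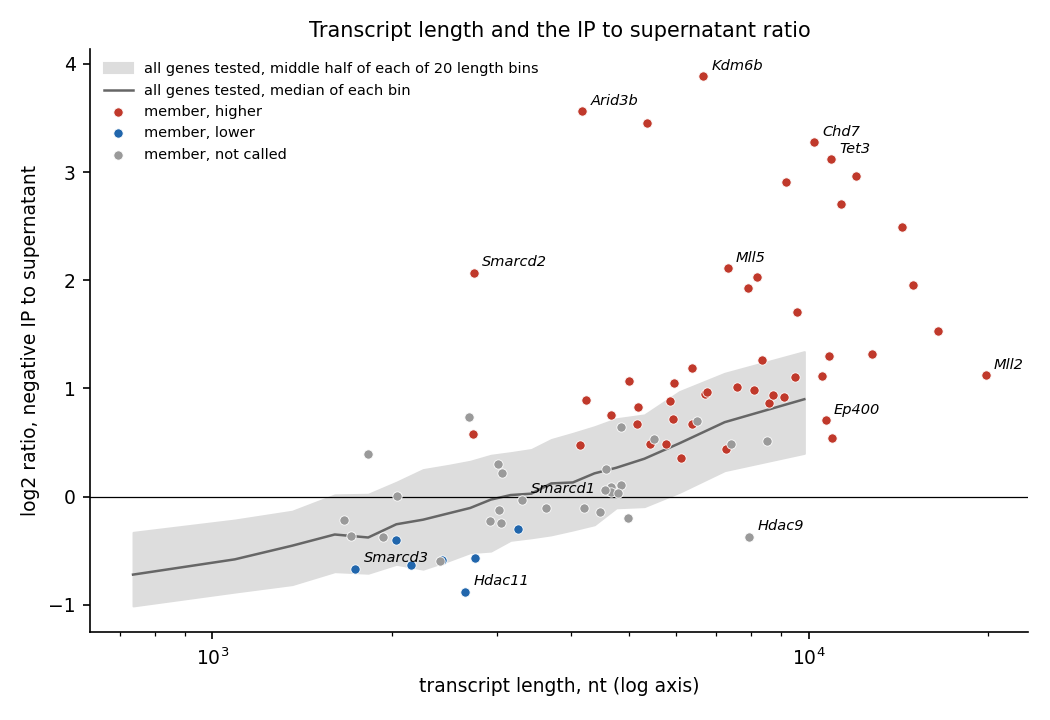
Log2 ratio of negative IP to supernatant against transcript length on a log axis for the 83 tested chromatin genes, over the median (line) and interquartile range (grey) of all tested genes in 20 length bins. Most members above 4565 nt lie above the all-gene line, and Smarcd2, Arid3b and Kdm6b lie far above genes of their length.

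Marker genes of cell types were measured in the same libraries. Of 12 neuronal markers 5 were higher and 3 lower in the negative IP, and of 8 immature neuron markers 4 were higher and 1 lower, with sums of 780 to 1231 CPM in the IP and 1305 to 1992 CPM in the supernatants. Astrocyte markers summed to 499 to 1437 CPM and 540 to 690 CPM (2 of 8 higher), oligodendrocyte markers to 2954 to 7811 CPM and 3450 to 6923 CPM (1 of 8 lower), and microglial markers to 49.6 to 86.4 CPM and 63.4 to 101 CPM (3 of 8 lower). Markers of oligodendrocyte precursors and dividing cells had 2 of 7 higher and 1 lower, and preoptic area markers had 1 of 10 higher and 0 lower. No endothelial, meningeal or blood marker was called. Over all genes 15.8% were higher and 16.2% lower. The part of these cell type markers in the chromatin gene ratios was not tested.

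Chromatin genes outside the rule, taken from lists of partner subunits and other writers, numbered 148. In the negative IP 49 of them (33.1%) were higher and 21 lower, with a median log2 ratio of 0.14. Over all genes 15.8% were higher and 16.2% lower. DNA methylation writers and readers had 5 of 10 higher and 0 lower, led by Dnmt3b (log2 3.22, SE 0.58) and Dnmt3a (2.50, SE 0.12), the methyltransferases that make new marks (edgeR adjusted p = 0.00190 and 1.32e-06). ISWI partners with Atrx had 7 of 10 higher, led by Cecr2 (log2 2.77, SE 0.43). A list of histone methyltransferases for lysines 9, 36 and 79 of H3 and lysine 20 of H4 had 7 of 12 higher. Its highest ratios were those of Suv420h2 (current symbol Kmt5c), which methylates lysine 20 of H4 (2.62, SE 0.19), and Dot1l, which methylates lysine 79 of H3 (2.26, SE 0.20). Polycomb proteins had 11 of 28 higher and 1 lower, led by Cbx2 (2.71, SE 0.39). Deacetylase corepressors went both ways, 4 of 19 higher and 5 lower, with Ncor1, a scaffold that binds Hdac3, at log2 2.27 (SE 0.10) and Suds3 at -1.02 (SE 0.11). The listed partner subunits of nucleosome remodelling and deacetylase complexes had 0 of 9 higher and 3 lower, among them Mbd3 (-0.62, SE 0.11). TIP60, SRCAP and INO80 subunits had 4 of 20 higher and 7 lower, with a median of -0.31. The shares called as higher among these subunits (20%) and the corepressors (21.1%) lay near that of all genes.

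At day 21 alone 43 members were higher and 5 lower in the negative IP (all genes: 13% higher, 14.1% lower). In adults 36 were higher and 3 lower (all genes: 6.39% and 4.49%). Called as higher at both ages were 35 members, with 8 called in young alone and 1, Smarcc1, in adults alone. The test of the difference between ages called no member (edgeR, 0% of all genes, with 0 members by DESeq2 and 0 by limma voom). At an unadjusted edgeR p below 0.05 there were 2 of 83 members and 1068 of 16361 genes, a smaller share among the members. The members with unadjusted p below 0.05 were Ep400, at log2 1.05 (SE 0.14) in young and 0.36 (SE 0.17) in adults, and Kdm4c, a lysine 9 demethylase (interaction log2 -1.21, SE 0.48). The adult count rested on few libraries: without the supernatant of adult negative pool 1 it was 15 members in place of 39, and without that of pool 2 it was 22.

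Between the adult and young negative IP libraries no member was called by edgeR or limma voom, against 0.727% of all genes by edgeR. At an unadjusted edgeR p below 0.05 there were 10 of 83 members and 2897 of 16361 genes, a smaller share among the members. DESeq2 called 7 members: Arid4a, Brd2, Ep400, Hdac3, Hdac6, Kdm4c and Setd8. The DESeq2 share over all genes is not given here, so these 7 cannot be read as particular to the members. Hdac6 had 62.0, 81.5 and 75.7 CPM in the young IP and 37.4 and 38.8 CPM in the adult IP (log2 -0.92, SE 0.21, edgeR adjusted p = 0.0749). Arid4a, a retinoblastoma-binding protein gene, had a log2 difference of 0.91 (SE 0.19, adjusted p = 0.0600). The TET genes differed by -0.30 (Tet1) to 0.11, and none was called.

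In the supernatants age was compared over 10 pools, 5 young and 5 adult. The members' share of counts was 0.499 ± 0.0119% in young and 0.501 ± 0.0109% in adult pools (SD, n = 5 each). No member was higher in adults and 4 were lower (all genes: 4.2% higher, 5.22% lower), a share near that of all genes. The 4 were Tet1, Hdac6, Kdm1a and Nsd1. DESeq2 called 2 higher and 9 lower, and limma voom added Mll1 as higher to the same 4. The shares of all genes by these tools are not given here, so their counts cannot be read as particular to the members. At an unadjusted edgeR p below 0.05 there were 18 of 83 members and 3937 of 15938 genes, a smaller share among the members. In pooled tissue, fewer cells of a type and less RNA per cell cannot be told apart.

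Tet1 showed the largest age difference. Its young supernatants held 23.0, 27.3 and 24.2 CPM in the negative pools and 28.1 and 21.0 CPM in the earlier pools. The adult ones held 12.6 and 14.8 CPM in the negative pools, 12.004 CPM in the GFP-positive pool and 14.03 and 10.02 CPM in the earlier pools. Every adult pool lay below every young pool, and Tet1 was lower in all 5 adult pools (log2 -0.96, SE 0.13, edgeR adjusted p = 8.42e-04). Tet3 (log2 -0.33, SE 0.14, adjusted p = 0.152) and Tet2 (0.17) were not called.

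Kdm1a had 102, 101 and 106 CPM in the young negative pools and 126 and 101 CPM in the young earlier pools. The adult values were 83.3 and 85.7 CPM, 90.1 CPM in the GFP-positive pool, and 78.0 and 86.4 CPM in the earlier pools. The ages did not overlap (log2 -0.34, SE 0.08, edgeR adjusted p = 0.0193). Nsd1 ran from 75.5 to 96.5 CPM in young and from 64.1 to 72.6 CPM in adult pools, also without overlap (log2 -0.33, SE 0.08, adjusted p = 0.0225). Hdac6 overlapped within the pooled groups, at 38.8 to 65.6 CPM in young and 26.8 to 45.9 CPM in adults. Within the negative and new GFP-positive pools it ran from 38.8 to 44.8 CPM against 26.8 to 37.9 CPM, and within the earlier pools from 54.8 to 65.6 CPM against 43.7 to 45.9 CPM (log2 -0.40, SE 0.10, adjusted p = 0.0236).

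Within the new pools alone Tet1 (log2 -0.90) and Nsd1 (-0.46) were called, and within the 4 earlier pools alone no member. The shares of all genes called in these subsets are not given here. In the new pools all adult pools and no young pool carried GnRH-Cre, so age and genotype cannot be told apart there. The earlier pools were GFP-positive at both ages. Without the supernatant of adult negative pool 1, or without that of adult earlier pool 3, 2 of the 4 were left. Within the earlier pools the log2 difference was -1.03 for Tet1, -0.47 for Kdm1a, -0.43 for Hdac6 and -0.11 for Nsd1. Kdm1a (-0.24) and Hdac6 (-0.36) were not called within the new pools. Of the 10 other DNA methylation genes 2 were lower in adult supernatants and 0 higher (median log2 -0.09): Dnmt3a at log2 -0.77 (edgeR adjusted p = 6.80e-04) and Uhrf1 at -1.53 (SE 0.45, adjusted p = 0.0470). Of the 148 other chromatin genes 5 were higher and 16 lower, where all genes had 4.2% and 5.22%.

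**Figure D4:**
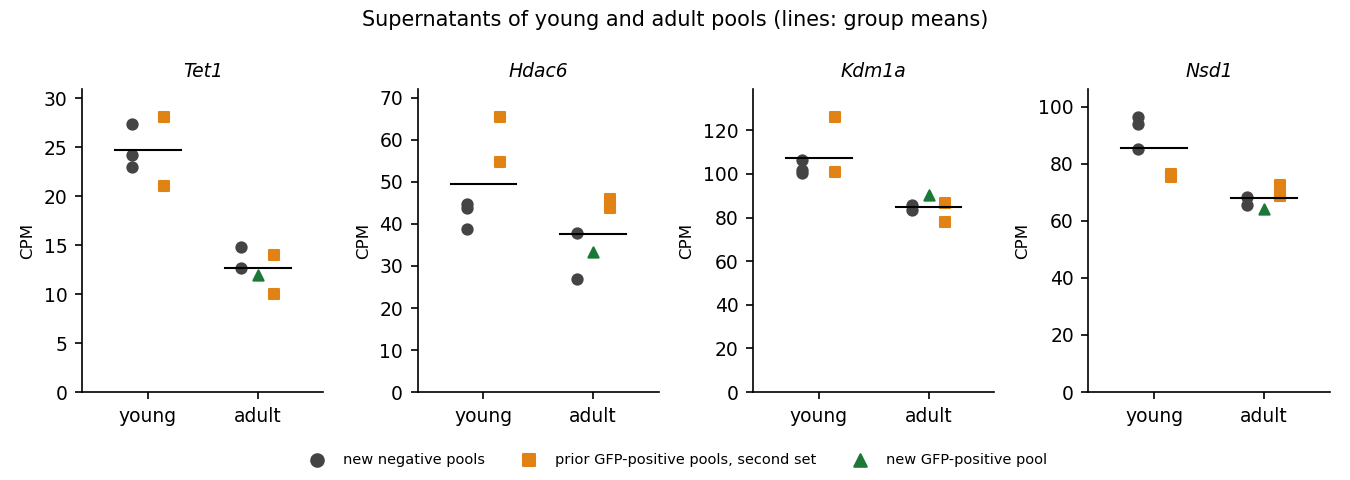
CPM in the supernatants of 5 young and 5 adult pools for the 4 chromatin genes called as lower in adults, with lines at group means, negative pools in grey, earlier pools from the second sequencing set in orange and the new GFP-positive pool in green. Young and adult pools do not overlap for Tet1, Kdm1a and Nsd1, while Hdac6 overlaps between pool origins.

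Cell type markers differed between these supernatants too. Oligodendrocyte markers summed to 2519 to 5424 CPM in adults and 4492 to 6923 CPM in young pools (3 of 8 lower), and markers of oligodendrocyte precursors and dividing cells to 61.0 to 88.4 CPM and 76.1 to 115 CPM (3 of 7 lower). Neuronal markers had 1 of 12 higher and 3 lower, immature neuron markers 1 of 8 lower and blood markers 2 of 2 lower. Microglial markers had 2 of 8 higher, astrocyte markers 1 of 8 and preoptic area markers 3 of 10, and no endothelial or meningeal marker was called. Their part in the 4 differences was not tested.

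The same RNA of the 4 earlier pools gave different levels of the members in the first and the second sequencing set. Of the 83 members 29 were higher in the second set and 17 lower, against 15% and 16.1% of all genes (edgeR with the pool as a term; the p-values refer to repeats of the same RNA). All 3 TET genes were among the higher. Tet3 stood at 19.8, 11.9, 16.3 and 12.9 CPM in the first set and 37.8, 30.0, 28.8 and 26.1 CPM in the second (log2 1.01, SE 0.10, adjusted p = 2.45e-06). Tet1 held 17.2, 9.62, 8.58 and 5.996 CPM in the first set and 28.1, 21.0, 14.03 and 10.02 CPM in the second, higher in each of the 4 pools (log2 0.81, SE 0.11). This difference between sets was about as large as that of Tet1 between ages.

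Setd5, a SET domain protein gene, rose by log2 1.00 (SE 0.08), Arid5b by 0.89 (SE 0.12), Mll3 by 0.88 (SE 0.08), Nsd1 by 0.72 (SE 0.07) and Mll2 by 0.52. Lower in the second set were Hdac5 (log2 -0.58, SE 0.06), Brd9 (-0.56, SE 0.06), Hdac11 (-0.52, SE 0.05) and Kdm4b (-0.52, SE 0.06). Length had a Spearman correlation of 0.77 with this difference over the members. Over 15922 genes it was -0.02, where both the shortest and the longest genes were higher. The bin of the longest genes, with a median of 9836 nt, had a median log2 difference of 0.33. GC content had correlations of -0.48 over the members and -0.45 over all genes. All supernatants of the age comparison belonged to the second set.

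**Figure D5:**
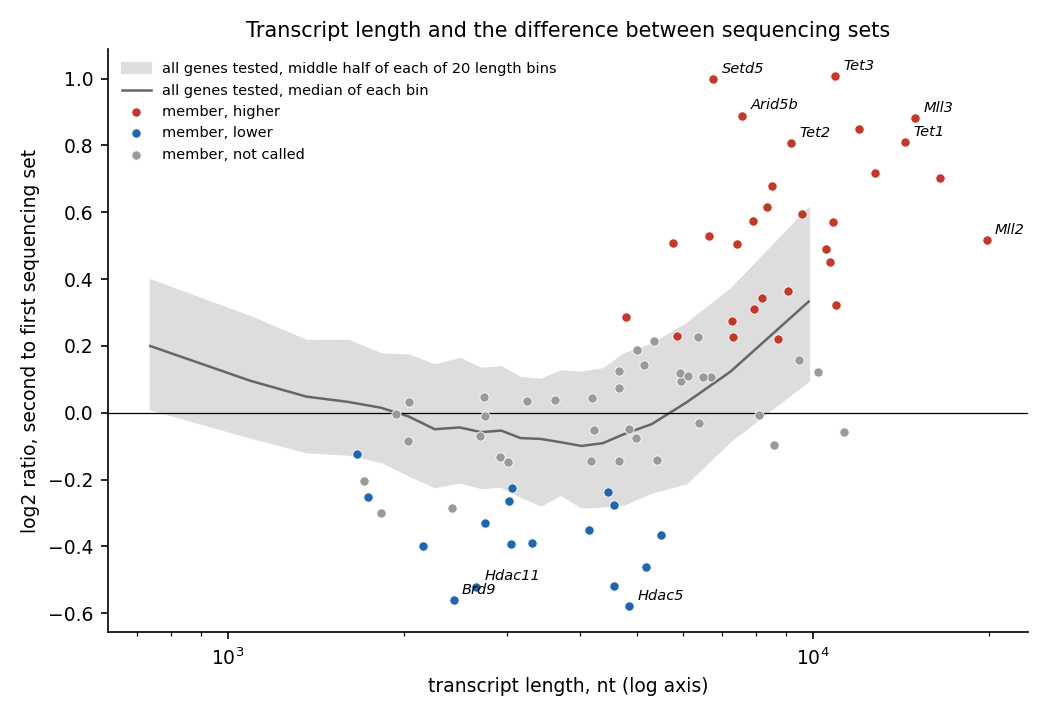
Log2 difference between the second and first sequencing sets of the same 4 pools against transcript length on a log axis, for the tested chromatin genes and for all tested genes in 20 length bins (line, median; grey, interquartile range). Members above about 10 kb are mostly higher in the second set, with Tet3 at 1.01 and Mll3 at 0.88, and Hdac5 and Brd9 are the lowest members.

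The GFP-positive pool repeated the pattern of the negative pools in 1 further pair of libraries. Each of the 47 members called as higher in the negative IP was above its own supernatant there, 25 of them at least 2-fold. These shares were not computed for all genes called as higher, so they cannot be read as particular to the members. Over all members 28 (33.7%) were at least 2-fold above, against 12.7% of 15106 genes, where the negative pools had 25 to 33 such members each. The median log2 ratio was 0.73 over members, where the 5 negative pools had 0.53 to 0.80, and 0.06 over all genes. Kdm6b was at 68.6 CPM in this IP and 5.42 CPM in its supernatant, Tet3 at 218 and 21.5 CPM, Chd7 at 86.4 and 13.9 CPM, and Arid1a at 139 and 45.5 CPM. Of the 7 members called as lower, 5 were below the own supernatant, and Hdac2 (197 and 137 CPM) and Brd9 (64.5 and 47.5 CPM) were above. The series text names the supernatant of this pool in 2 ways. With the supernatant titled adult negative 1 in its place, the counts were again 47 and 25.

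Against the 2 adult negative IP libraries the GFP-positive IP had no member called (edgeR with the spread of the negative IP libraries; 0.00603% of all genes called; 7 members at an unadjusted p below 0.05; 0 by DESeq2 and 0 by limma voom). With a single GFP-positive IP the values are descriptions. It was above all 5 negative IP libraries for 16 members, below all of them for 26 and within their range for 41, while over all genes 16.5% were above and 16.1% below. The ratio to the adult negative IP had a Spearman correlation with transcript length of -0.40 over the members and -0.01 over all genes. The part of length in these differences was not tested. Smarcb1 stood at 234 CPM against 127 to 194 CPM in the negative IP (log2 0.86 against the adult ones, SE 0.25, adjusted p = 0.938), and Hdac2 at 197 CPM against 96.2 to 129 CPM (0.75, SE 0.24). Tet1 at 62.5 CPM lay below 82.8 to 141 CPM (-0.56, SE 0.31), and Chd7 at 86.4 CPM below 118 to 216 CPM (-0.76, SE 0.35).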

How the data were processed

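The authors deposited raw counts of reads per gene symbol for 20 libraries, without normalisation. The submitters' processing notes name TopHat2 2.0.13, Bowtie2 2.2.1, HTSeq 0.6.1 and mm10, with no role for any tool. Annotation and strand setting: not given in the sources used here. RNA was amplified, per the labels' protocols, with an ultra-low-input polyA kit. Reads of overlapping genes or near-identical copies could not be told apart.

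Tests across genes were edgeR 4.0.16 quasi-likelihood tests on these counts (R 4.3.3; TMM scaling, filterByExpr with minimum count 10, Benjamini-Hochberg adjustment over all tested genes, threshold 0.05). The 10 negative libraries made 1 fit with 6 residual degrees of freedom, without pairing fractions of a pool. The supernatant fit (terms age and pool origin) left 7, the set fit (terms pool and set) 3 and the IP fit 3. CPM are scaled over all 20 libraries, and means carry the SD. The procedure was tested on simulated data. Pools were taken as separate mice, and p-values measure the spread between these pools.

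The replicate numbers were taken to pair fractions of the same animals. IP and supernatant deviations of the same number correlated at 0.28, 0.18 and 0.434 in young pools over 10467 genes. Those of different numbers correlated at -0.377 to 0.119. Taking deviations from a group mean lowers the values of different numbers, so these correlations alone do not establish the pairing. The 2 adult pools give a single value, 0.21. Adult replicate numbers follow the titles, while the descriptions number the adult negative supernatants 2 and 3 and their IP libraries 1 and 2, so the adult pairing and the pool block rest on the titles. Alternatives were DESeq2 1.42.0, limma voom (limma 3.58.1), other scaling, no filter, the pool block, a length offset (spline with 5 degrees of freedom) and leaving out libraries. Lengths and coordinates came from GENCODE M21 for the longest transcript of a gene, and 98.5% of symbols matched, with all 84 members. Named members were the highest and lowest of each of 11 classes, 18 always followed, and called members of the other comparisons (at most 10 a direction); others were named after their values were seen, and some genes under the rule are not reported here. The members, classes and lists were chosen with earlier results of these data known.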

Additional observations from a re-analysis of the deposited data

Results flagged for a closer look

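Among 110 pairs of gene and group looked at, 7 had a library far from the others of its group, where chance marks about 1 in 20. In the negative supernatants Hdac1 was lowest in young pool 1 at 42.4 CPM (the other 4 at 51.1 to 54.6), Setd3 was highest in adult pool 1 at 266 CPM (218 to 231), and Smarca4 was highest in young pool 3 at 122 CPM (103 to 106). In the young supernatants Crebbp was highest in negative pool 1 at 48.7 CPM (39.6 to 42.2). Ep400 was lowest in earlier pool 1 at 30.8 CPM (38.0 to 40.2), and Kdm1a was highest in the same library at 126 CPM (101 to 106). In the adult supernatants Ep300 was highest in earlier pool 3 at 34.9 CPM (23.5 to 26.6).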

How the results depend on the processing

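The length offset moved the most counts: called members went from 54 to 27 for the negative IP (28 with the replicate block as well), from 48 to 24 (26) in young and from 39 to 17 (18) in adult pools, and from 4 to 8 for age in supernatants. With the offset, and with offset and block, Chd3 turned to log2 -0.24 and -0.25 (-0.0655 and -0.0716 in young pools), Ep400 to -0.22 in both and Smarca5 to -0.18 in both; the cause was not tested. The replicate block alone gave 54, 46 and 38 members and 0 for age by fraction; it cannot be combined with age between IP libraries, and it changed no count by 1.5 times. DESeq2 gave 7 members for age in the IP and 11 for age in supernatants. Age in supernatants gave 2 in new pools alone, 0 in earlier pools alone and 8 with the first set, with fewer samples in the first 2. Leaving out single libraries or pools gave 45 to 55 for the negative IP, 38 to 48 in young, 15 to 40 in adults, 0 to 1 for age by fraction, 0 to 2 for age in the IP, 2 to 5 for age in supernatants, 40 to 46 between sets and 0 for the GFP-positive IP. Exchanging the adult supernatants that the series text confuses gave 55 for the negative IP. Other scaling moved the median of all genes by less than 0.03 log2. A floor of 3 counts was 0.0594 to 0.108 CPM, and Arid3c was measured near it; these floors cover counting error only.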
